A study of Mus musculus with 4 samples.

Results

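Arterial endothelial identity was examined through 9 genes that mark endothelial cells (ECs) of arteries: *Gja4*, *Gja5*, *Efnb2*, *Sema3g*, *Bmx*, *Unc5b*, *Gkn3*, *Cxcl12* and *Fbln5*. The genes were taken by symbol from the 24873 genes listed, and all 9 were present and passed the filter of a mean of at least 10 normalized counts. RNA-Seq had been performed on brain cells of mice labelled Cdh5cre;Mgpflox/flox, with 2 libraries of the control group and 2 of the tamoxifen group, each made from the cells of 3 mice. In these mice a Cre recombinase under the VE-cadherin (*Cdh5*) promoter is activated by tamoxifen and removes the floxed *Mgp* gene, which encodes matrix Gla protein, an inhibitor of bone morphogenetic proteins. The tamoxifen mice received 75 mg/kg daily on 5 consecutive days from 10 weeks of age, and cells were taken on day 9. The control mice carried the same Cre and floxed alleles and are labelled as having received no tamoxifen, so the drug, Cre activation and loss of *Mgp* cannot be told apart. The study describes the cells as CD31+CD45-, whereas the labels name them as tdTomato+. The table heads its columns with the letters C and A, which were read as control and as arteriovenous malformation, the lesion that follows tamoxifen.

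Arterial ECs differ from those of capillaries and veins in a program laid down by VEGF and Notch signaling with SOXF transcription factors such as Sox17. The program includes gap junction proteins that couple neighbouring ECs, guidance cues that keep arterial and venous cells apart, a chemokine, and proteins of the elastic wall. Loss of the boundary between arterial and venous ECs is a known feature of arteriovenous malformations, in which arteries feed directly into veins.

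Of the 9 arterial genes, 6 fell in the tamoxifen libraries and 0 rose, where a call needed a log2 fold change beyond 1 in size and an adjusted p under 0.05 (limma with Benjamini-Hochberg adjustment). Of the 20485 genes tested, 16.0% fell and 28.6% rose. *Gkn3*, *Sema3g* and *Cxcl12* fell the furthest, to levels 7.13-fold to 11.2-fold under those of the controls. *Bmx*, *Unc5b* and *Gja5* fell by less, 2.98-fold to 3.89-fold. *Efnb2*, *Gja4* and *Fbln5* did not meet both limits, and *Fbln5* was the member with higher values under tamoxifen. The 9 genes had a median log2 fold change of -1.73, and all genes tested one of 0.05. Fold changes are on the log2(normalized count + 1) scale, and folds are ratios of group means of normalized counts. For any single gene the smallest two-sided p of an exact permutation test is 0.333 with so few libraries, and limma's p-values draw on a spread estimated across all genes. The study describes the libraries as independent groups of pooled mice.

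**Figure D1:**
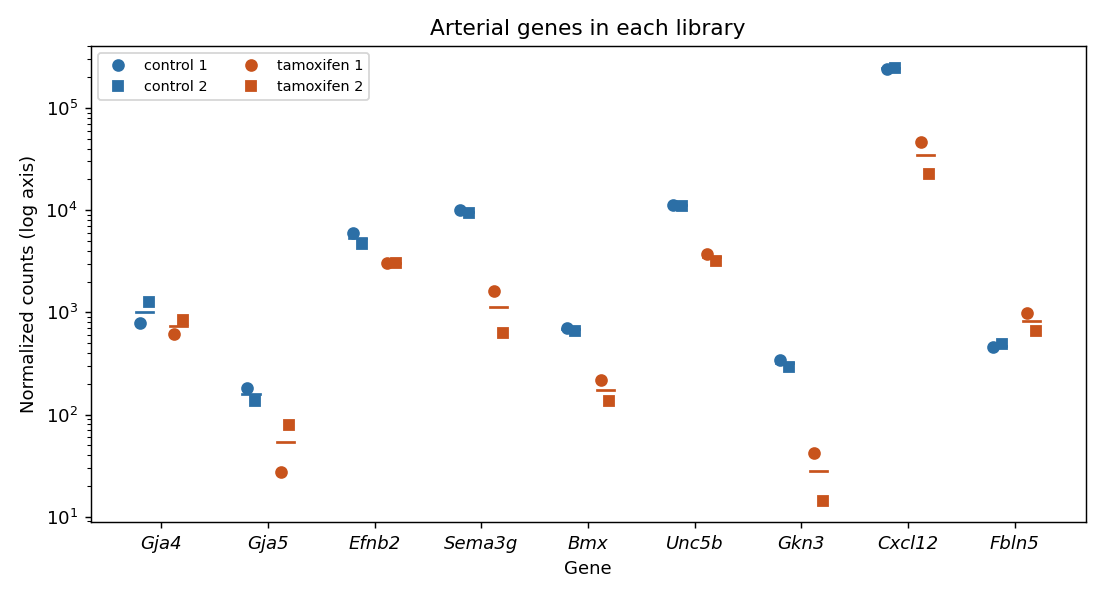
Normalized counts of each arterial gene by library (points, log axis), with 2 control and 2 tamoxifen libraries per gene and a line at each group mean. The points of the groups overlap for *Gja4* alone, lie lower under tamoxifen for 7 genes and lie higher for *Fbln5*.

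The libraries held 35387438 to 49799321 reads on genes. *Mgp*, the targeted gene, stood at 1094 and 1352 normalized counts in controls and at 945 and 909 under tamoxifen, a log2 fold change of -0.39 (SE 0.18, adjusted p = 0.0986) that did not pass the test. The 14 pan-endothelial genes, among them *Pecam1* (CD31) and *Cdh5*, were abundant in the controls and all fell, with a median log2 fold change of -2.94. Their geometric mean was 45604 and 47673 in the control libraries against 8546 and 4415 in the tamoxifen libraries. Tamoxifen library 1 thus stood 1.94-fold above library 2 for these genes, whereas the control libraries stood at a ratio of 0.957. Genes of other cells moved with the groups: the summed normalized counts of 8 neutrophil genes were 716 to 1218 in controls and 86162 to 115839 under tamoxifen, and those of 10 fibroblast genes were 2437 to 3461 and 62270 to 72615. In such bulk libraries, fewer cells of a type and less RNA per cell cannot be told apart.

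The connexin genes *Gja4* and *Gja5* encode subunits of the gap junction channels between arterial ECs. *Gja4* (chromosome 4 from 127205214 to 127207851 of GRCm39, minus strand) had 786 and 1249 normalized counts in the controls and 619.9 and 843 under tamoxifen. The groups overlapped, since tamoxifen library 2 lay above control library 1, and the log2 fold change of -0.45 did not pass the test (SE 0.27, adjusted p = 0.180). It was 0.02 with the libraries rescaled to equal totals, the setting in which its direction turned. In each group library 2 lay above library 1, an order also seen in the summed counts of 9 pericyte genes, which were 35069 and 65577 in the controls and 49971 and 94503 under tamoxifen. Of those pericyte genes 3 rose and 0 fell, where 28.6% and 16.0% of all genes did, with *Rgs5* and *Vtn* as the most abundant over the 4 libraries. The sums of the astrocyte, smooth muscle and neuron genes had the same order in both groups. Those of the fibroblast, neural progenitor, neutrophil, erythrocyte and pluripotency genes did not. The part of any of these cells in the *Gja4* values was not tested.

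*Gja5* (chromosome 3 from 96812009 to 96984732, plus strand) was the least abundant member per kilobase of transcript, with 184 and 135 normalized counts in the controls and 27.1 and 79.8 under tamoxifen. It fell by 1.73 on the log2 scale (SE 0.57, adjusted p = 0.0320), with both tamoxifen libraries under both controls. These values rest on 134 and 108 reads in the controls and on 25 and 111 reads under tamoxifen and library 1 lay the furthest under the controls. The log2 fold change was -0.97 without tamoxifen library 1 (adjusted p = 0.226), -2.50 without library 2 (adjusted p = 0.0727) and -1.52 without control library 1 (adjusted p = 0.0524). The adjusted p was under 0.05 in 8 of 14 alternative settings. Exons of *Gja5* overlap those of *Gpr89* on the other strand, a gene with 744 to 1208 normalized counts. *Gpr89* ends at 96812662 and the canonical *Gja5* transcript starts at 96939711, so the overlap lies outside that transcript. The study made its libraries with a stranded kit, and the strand setting of the counting is not given in the sources used here.

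*Efnb2*, *Sema3g* and *Unc5b* act in vessel guidance. *Efnb2* encodes ephrin-B2, the arterial ligand of the venous receptor Ephb4, and lies on chromosome 8 from 8667226 to 8711249 (minus strand). It had 5939 and 4665 normalized counts in the controls and 3067.1 and 3067.5 under tamoxifen. The groups did not overlap and the log2 fold change was -0.78 (SE 0.17, adjusted p = 0.00545), which is short of the limit on size. *Efnb2* had the smallest difference between tamoxifen libraries of the 9 genes, where the pan-endothelial genes differed 1.94-fold.

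*Sema3g* encodes a secreted semaphorin that signals through neuropilin and plexin receptors, and lies on chromosome 14 from 30939808 to 30952309 (plus strand). It went from 9972 and 9283 normalized counts in the controls to 1606 and 627 under tamoxifen. It fell by 3.26 on the log2 scale (SE 0.38, adjusted p = 0.000245), or 8.62-fold, and the higher tamoxifen library was still far under both controls. The log2 fold change was -3.94 without tamoxifen library 1 and -2.58 without library 2. *Unc5b*, a netrin receptor that holds back vessel sprouts, lies on chromosome 10 from 60598372 to 60667396 (minus strand). Its values were 11341 and 10997 normalized counts in the controls and 3727 and 3190.5 under tamoxifen. *Unc5b* fell 3.23-fold, with a log2 fold change of -1.70 (SE 0.16, adjusted p = 0.000109), and its libraries lay close together within each group.

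*Bmx* encodes a nonreceptor tyrosine kinase of the Tec family found in arterial endothelium and endocardium, and lies on chromosome X from 162975838 to 163041195 (minus strand). It had 701 and 662 normalized counts in the controls and 216 and 135 under tamoxifen. It fell by 1.99 on the log2 scale (SE 0.29, adjusted p = 0.000808), with no overlap between the groups.

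*Cxcl12* encodes a chemokine that acts on Cxcr4 and is also made by stromal cells. Whether its reads came from arterial ECs alone was not tested. The gene lies on chromosome 6 from 117144945 to 117158328 (plus strand). It had 240969 and 248697 normalized counts in the controls and 46238 and 22477 under tamoxifen. The fall was 7.13-fold, a log2 fold change of -2.92 (SE 0.42, adjusted p = 0.000678), and the controls lay close together while tamoxifen library 1 was 2.06-fold above library 2. *Gkn3*, a gastrokine gene known as an arterial EC marker of the mouse brain, lies on the same chromosome from 87360238 to 87365917 (minus strand). It had 344 and 290.4 normalized counts in the controls and 42.3 and 14.4 under tamoxifen, the last resting on 39 and 20 reads. *Gkn3* fell by 3.62 on the log2 scale (SE 0.56, adjusted p = 0.000978), the lowest log2 fold change among the 9 genes. The value was -4.37 without tamoxifen library 1 and -2.87 without library 2.

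*Fbln5* encodes fibulin-5, which helps to assemble elastic fibers in the arterial wall, and lies on chromosome 12 from 101712556 to 101785429 (minus strand). It had 455 and 489 normalized counts in the controls and 979 and 664 under tamoxifen. Both tamoxifen libraries lay above both controls, 1.74-fold on average, but the log2 fold change of 0.77 was short of the limit on size (SE 0.24, adjusted p = 0.0258). Over 14 alternative settings it ranged from 0.23 to 1.24, and the adjusted p was under 0.05 in 9. All 10 fibroblast genes rose, by as much as 6.21 on the log2 scale. *Col1a1* and *Col1a2* were the most abundant of them over the 4 libraries, and *Dpt* had 0 reads in both controls. Their part in the *Fbln5* values was not tested.

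**Figure D2:**
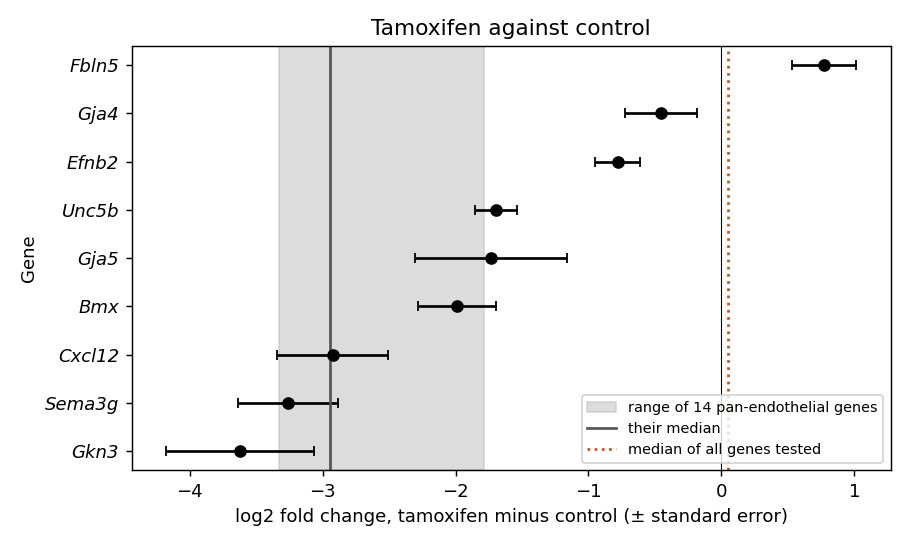
Log2 fold change (tamoxifen minus control, log2(normalized count + 1), x axis) of the 9 arterial genes, with bars for the standard error from limma. The gray band is the range of the 14 pan-endothelial genes, with a line at their median, and the dotted line is the median of all genes tested. *Sema3g* and *Cxcl12* lie in the band near -3 and *Gkn3* lies to its left at -3.62, whereas *Efnb2*, *Gja4* and *Fbln5* lie to its right.

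By adjusted p alone, 7 of the 9 genes were lower and 1 was higher, where 25.5% and 33.4% of all genes were. The libraries did not overlap for 7 genes that were lower and for 1 that was higher, where 39.2% of all genes had both tamoxifen libraries under both controls and 43.1% had both above. *Sema3g*, *Bmx*, *Unc5b*, *Gkn3* and *Cxcl12* kept an adjusted p under 0.05 in all 14 alternative settings. Rescaling moves the reference for all genes: the median over all genes was 0.52 with equal totals and -0.23 with quantile normalization, and *Gja4* was the only member whose direction turned.

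The arterial genes were next set against the pan-endothelial genes, to ask whether they moved as far as genes common to all ECs. Each gene's log2 value was taken relative to the mean log2 value of the 14 pan-endothelial genes in the same library, and the 20471 other genes were fitted again with limma. On this scale 4 of the 9 arterial genes were higher under tamoxifen and 0 were lower, whereas 87.0% of all genes were higher and 0.0928% were lower. The other 5 arterial genes did not pass the test, against 12.9% of all genes. The median relative log2 difference of the 9 genes was 1.19, against 2.98 over all genes.

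*Fbln5* was 13.0-fold higher relative to the pan-endothelial genes (log2 difference 3.70, 95% interval 2.41 to 4.98, adjusted p = 5.52e-08). *Gja4* was 5.54-fold higher (log2 difference 2.47, interval 1.23 to 3.71, adjusted p = 0.000144), with a log2 difference of 3.17 without tamoxifen library 1 and 1.77 without library 2. *Efnb2* was 4.42-fold higher (interval 1.12 to 3.17 in log2, adjusted p = 6.73e-05). *Unc5b* was 2.34-fold higher (interval 0.25 to 2.20, adjusted p = 0.0163), with an adjusted p under 0.05 in 8 of 12 alternative settings. With control library 1 left out, the log2 differences were 3.67 for *Fbln5*, 2.17 for *Gja4*, 2.35 for *Efnb2* and 1.28 for *Unc5b*. With control library 2 left out, they were 3.72, 2.77, 1.94 and 1.17. Each of these fits leaves 1 control library, so no call is drawn from them.

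*Cxcl12* lay at nearly the same distance from the pan-endothelial genes in the 4 libraries, since its log2 value exceeded their mean by 2.40 and 2.38 in the controls and by 2.44 and 2.35 under tamoxifen. The 95% interval of its relative difference ran from -0.74 to 0.74 (adjusted p = 0.999). *Sema3g* lay 2.19 and 2.36 log2 units under that mean in the controls and 2.41 and 2.81 under it with tamoxifen, a relative difference of -0.34 (interval -1.39 to 0.72, adjusted p = 0.550). *Gkn3* had a relative difference of -0.69 (interval -2.32 to 0.93, adjusted p = 0.419). *Bmx*, at 0.93 (interval -0.46 to 2.32), and *Gja5*, at 1.19 (interval -0.44 to 2.82), had intervals that include 0. Relative to the pan-endothelial mean, *Bmx* stood at -6.02 and -6.17 in the controls and at -5.30 and -5.02 under tamoxifen. *Gja5* stood at -7.95 and -8.45 in the controls and at -8.25 and -5.77 under tamoxifen. On this scale the interval widths and adjusted p-values rest on a spread estimated across all genes. They do not measure the spread of a gene's own libraries.

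**Figure D3:**
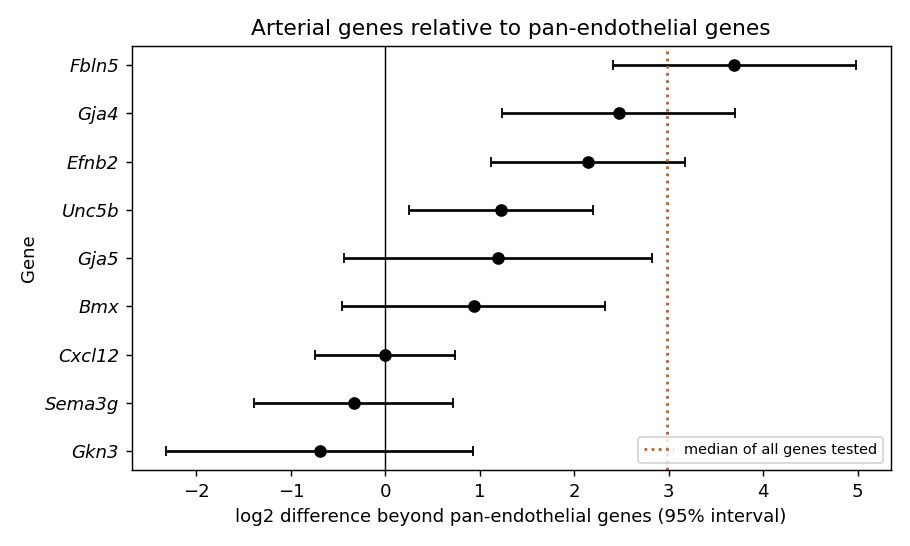
Log2 difference of each arterial gene beyond the mean of the 14 pan-endothelial genes (tamoxifen minus control, x axis), with its 95% interval and the median of all genes tested as a dotted line. The interval widths come from a spread estimated across all genes. The interval lies above 0 for *Fbln5*, *Gja4*, *Efnb2* and *Unc5b* and spans 0 for the other 5 genes.

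The arterial genes also differed in how far the tamoxifen libraries stood apart. The ratio of library 1 to library 2 ran from 1.34 to 2.30 among the 14 pan-endothelial genes. *Cxcl12* at 2.06, *Bmx* at 1.60 and *Fbln5* at 1.47 lay within that range. *Gkn3* at 2.94 and *Sema3g* at 2.56 lay above it. *Unc5b* at 1.17, *Efnb2* at 1.00, *Gja4* at 0.735 and *Gja5* at 0.340 lay below it, so that neither connexin gene was higher in the library with more pan-endothelial RNA. With a single pair of libraries these ratios carry no test.

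**Figure D4:**
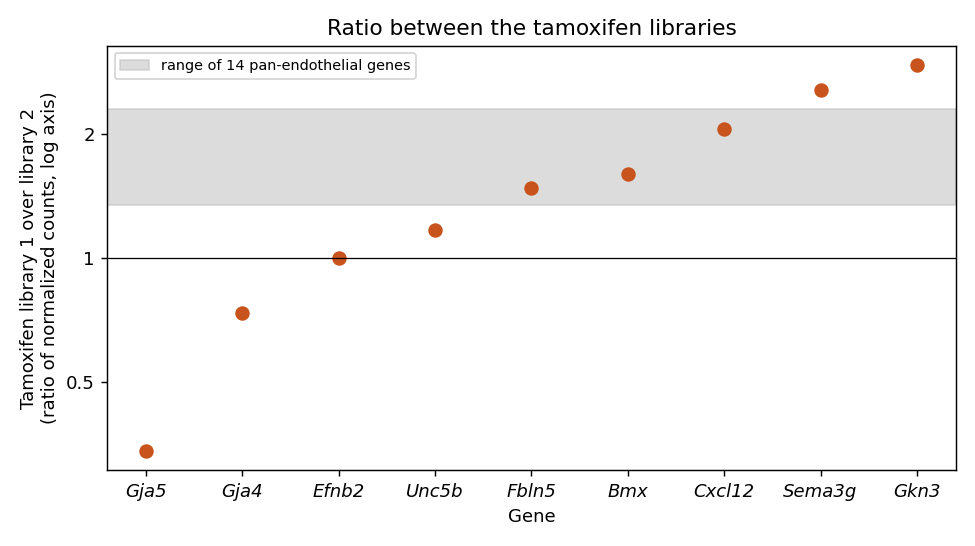
Ratio of normalized counts in tamoxifen library 1 to library 2 (log axis) for each arterial gene, with the range over 14 pan-endothelial genes as a gray band. The genes run from *Gja5* at 0.340 to *Gkn3* at 2.94, and 3 of the 9 lie within the band.

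The promoter sequence is given for the 3 members that fell about as far as the pan-endothelial genes and for *Fbln5*, the member with higher values. Each window holds the 250 bases before the start of the canonical transcript (GRCm39, GENCODE M39), on the strand of the gene, and contains no annotated exon. The *Cxcl12* window lies inside the annotated gene, which begins at 117144945, upstream of the canonical start at 117145496. Capitals mark matches, on either strand, to GGAAG, a core of ETS factor sites, to TGGGAA, a core of sites of the Notch effector RBPJ, and to ATTGT, a core of SOX factor sites. TGGGAA followed by G overlaps GGAAG.
Sema3g promoter (chr14:30939558-30939807, plus strand): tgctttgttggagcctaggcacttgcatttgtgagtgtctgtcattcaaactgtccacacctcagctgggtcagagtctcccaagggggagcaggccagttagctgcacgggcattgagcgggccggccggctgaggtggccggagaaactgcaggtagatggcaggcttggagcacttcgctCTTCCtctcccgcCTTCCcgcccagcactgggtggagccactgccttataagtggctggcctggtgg
Gkn3 promoter (chr6:87365918-87366167, minus strand): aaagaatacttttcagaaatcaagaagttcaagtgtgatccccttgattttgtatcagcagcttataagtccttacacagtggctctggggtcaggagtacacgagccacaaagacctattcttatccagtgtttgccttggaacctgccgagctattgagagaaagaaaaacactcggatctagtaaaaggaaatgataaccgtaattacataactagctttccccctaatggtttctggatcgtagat
Cxcl12 promoter (chr6:117145246-117145495, plus strand): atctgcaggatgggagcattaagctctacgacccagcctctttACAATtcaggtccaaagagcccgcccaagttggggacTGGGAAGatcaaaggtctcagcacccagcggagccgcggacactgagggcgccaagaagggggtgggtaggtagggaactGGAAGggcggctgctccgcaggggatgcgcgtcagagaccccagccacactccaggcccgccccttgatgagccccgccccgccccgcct
Fbln5 promoter (chr12:101785430-101785679, minus strand): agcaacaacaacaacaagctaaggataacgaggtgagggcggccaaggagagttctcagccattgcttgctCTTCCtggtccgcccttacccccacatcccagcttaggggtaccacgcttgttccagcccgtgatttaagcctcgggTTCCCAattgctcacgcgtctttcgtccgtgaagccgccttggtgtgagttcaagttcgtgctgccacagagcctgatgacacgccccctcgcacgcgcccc
The *Sema3g* window held 2 ETS matches, the *Gkn3* window held none of the motifs, and the *Fbln5* window held an ETS and an RBPJ match. The *Cxcl12* window held 2 ETS matches, 1 RBPJ match and 1 SOX match. Over all 9 members, 5 windows matched GGAAG, 3 matched TGGGAA and 3 matched ATTGT, where 63.8%, 22.7% and 26.9% of 21757 protein-coding promoters did. Among the members that fell furthest, *Sema3g* and *Cxcl12* thus shared GGAAG, which 63.8% of promoters hold, and *Gkn3* had no match.

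Levels were compared between the genes per kilobase of the canonical transcript. In the controls *Cxcl12* led with 43188 ± 964 normalized counts per kilobase (SD, n = 2), followed by *Sema3g* at 2116 ± 107, *Unc5b* at 1891 ± 41.3 and *Efnb2* at 1059 ± 179.9. *Gja4* at 597 ± 192, *Gkn3* at 370.4 ± 44.1, *Bmx* at 226 ± 9.21, *Fbln5* at 76.0 ± 3.94 and *Gja5* at 50.9 ± 10.9 came after them. No neighbours in this order overlapped between their libraries. Under tamoxifen *Cxcl12* still led, at 6061 ± 2964 per kilobase (SD, n = 2), but *Efnb2* at 612 ± 0.0565 and *Unc5b* at 586 ± 64.3 came next. *Gja4*, at 429 ± 92.7, and *Sema3g*, at 245 ± 152, followed, then *Fbln5* at 132 ± 35.9, *Bmx* at 58.3 ± 18.9, *Gkn3* at 33.1 ± 23.0 and *Gja5* at 17.1 ± 11.9. *Sema3g* thus went from the second place to the fifth, and *Fbln5* from the eighth to the sixth. The libraries overlapped between *Efnb2* and *Unc5b*, *Sema3g* and *Fbln5*, *Bmx* and *Gkn3*, and *Gkn3* and *Gja5*, so the order within these pairs is within the spread of the libraries.

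Among 18 further arterial genes, 17 were tested (*Cytl1* was under the filter), of which 12 fell and 2 rose, with a median log2 fold change of -1.60. Of all genes tested, 16.0% fell and 28.6% rose. *Edn1*, the gene of endothelin, fell from 6836 and 8795 normalized counts to 1076 and 434, and *Acvrl1*, a receptor of the bone morphogenetic protein family, from 47879 and 52300 to 8461 and 3790. *Sox17* fell with a log2 fold change of -2.93, close to *Cxcl12*. *Stmn2* rose with a log2 fold change of 3.19. It is also a neuron gene, and 6 of 8 neuron genes rose. Relative to the pan-endothelial genes, 9 of the 17 were higher and 0 were lower, where 87.0% and 0.0928% of all genes were. The 17 include *Mgp*, the targeted gene, which was not called in the first fit. *Mgp* was among the 9 higher on the relative scale, at a log2 difference of 2.53.

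The receptors, ligands and matrix partners of the 9 genes did not move as a block. Of 18 partner genes 10 fell and 6 rose, where 16.0% and 28.6% of all genes did, with a median log2 fold change of -1.12. *Ephb4*, the receptor of ephrin-B2, fell from 15686 and 18209 normalized counts to 6980 and 4191, a log2 fold change of -1.64 that was lower than that of its ligand gene. *Cxcr4*, the receptor of *Cxcl12*, had 1938 and 1676 normalized counts in the controls and 2467 and 2129 under tamoxifen (log2 fold change 0.35, adjusted p = 0.107). *Ackr3*, the scavenger receptor of the same chemokine, fell from 8925 and 8644 to 1604 and 1331. *Nrp2*, a receptor of class 3 semaphorins, fell with a log2 fold change of -1.14. *Gja1*, a connexin gene also expressed in astrocytes, rose from 11915 and 7273 to 19980 and 35343 normalized counts, in the direction opposite to *Gja5*. *Tek* and *Robo4*, both also pan-endothelial, had the lowest values of the partners, at -3.22 and -3.21. *Lox*, which cross-links elastin and collagen, rose the most, from 45.2 and 52.6 to 2855 and 1779 normalized counts. Relative to the pan-endothelial genes, 13 of the 16 partners tested on that scale were higher, where 87.0% of all genes were.

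Other EC classes were read beside the arterial genes. All 10 capillary genes fell, with a median log2 fold change of -2.66, led by *Slco1a4* at -4.10 and *Spock2* at -3.11, while *Slc16a1* had the highest value at -1.24. Of 12 venous genes 6 fell and 2 rose, where 16.0% and 28.6% of all genes did, with a median of -0.63. *Vwf* and *Slc38a5* had the lowest venous values, at -2.81 and -2.39. *Nr2f2*, which encodes the venous identity factor COUP-TFII, had 2635 and 2867 normalized counts in the controls and 2609 and 2465 under tamoxifen and did not pass the test (adjusted p = 0.525). The 2 that rose were *Vcam1*, at 2.12, and *Lcn2*, also a neutrophil gene, which had the highest venous value, at 3.18. *Ephb4* and *Nrp2* are counted both in this list and among the partners. Relative to the pan-endothelial genes, 2 of 10 capillary genes and 9 of 12 venous genes were higher, where 87.0% of all genes were. Lower on that scale was 1 capillary gene, *Slco1a4*, against 0.0928% of all genes. No difference between the lists was tested.

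**Figure D5:**
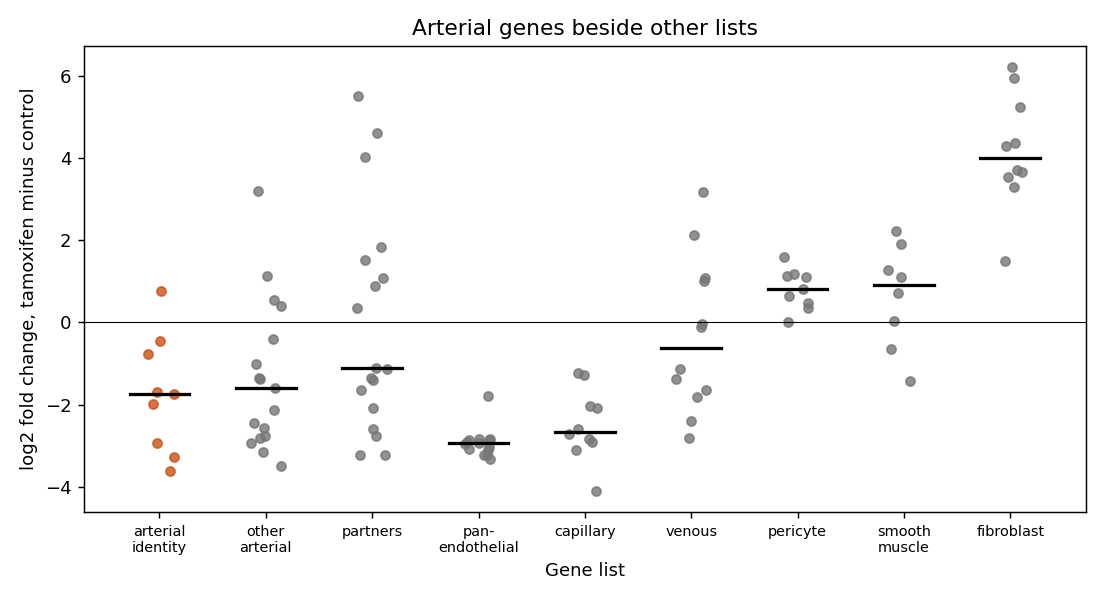
Log2 fold change (tamoxifen minus control, y axis) of each tested gene in the arterial identity list and in 8 lists beside it, with a bar at each median. The arterial identity genes (median -1.73) spread from the level of the pan-endothelial list (median -2.94) to a value of 0.77 for *Fbln5*, near the median of the pericyte list (0.81).

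Markers of other cells were present in the same libraries, and the genes named here have the highest means over the 4 libraries in their list. Of 8 smooth muscle genes 2 rose, where 28.6% of all genes did. *Mylk* and *Acta2*, the most abundant of the list, were not among those called, with log2 fold changes of -0.66 and 0.71. The smooth muscle sums were 3735 to 5474 normalized counts in controls and 3728 to 5860 under tamoxifen. All 8 astrocyte genes rose, with *Slc1a2* and *Slc1a3* as the most abundant, and with sums of 29093 to 34605 and 151021 to 314013. Of 8 neural progenitor genes 7 rose and *Nes* fell, and *Dcx* was the second in abundance, with sums of 34504 to 36843 and 24190 to 31529. For the 8 neuron genes, led by *Tubb3* and *Stmn2*, sums were 1111 to 1383 and 10230 to 15322. All 8 neutrophil genes (*S100a9* and *Ngp* in front), all 7 erythrocyte genes (*Hbb-bs* and *Slc4a1* in front, with sums of 19224 to 39137 and 112680 to 173729) and all 8 pluripotency genes (*Tdgf1* and *Dppa5a* in front, with sums of 79.4 to 115 and 42750 to 54965) rose. Among these lists, none but *Dpt* of the fibroblast genes had a library with 0 reads. The part of these cells in the arterial values was not tested.

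The 5 genes whose values over the 4 libraries were nearest to the median course of the arterial genes were *Sh3rf1*, *Zfp69*, *Sos2*, *Rgl1* and *Dock6*, out of 13659 candidates. Likeness was the Euclidean distance between log2 values centred on the control mean, and ran from 0.0468 to 0.0865 for these genes. That course stood at 0.04 and -0.04 in the controls and at -1.66 and -1.81 under tamoxifen. As a median taken in each library, it equalled the *Bmx* value in tamoxifen library 1 and the *Unc5b* value in library 2. The 5 genes had log2 fold changes of -1.78 to -1.71.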

How the data were processed

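RNA-Seq of brain cells from 2 control and 2 tamoxifen libraries was analysed. For alignment to GRCm39 and quantification the authors used STAR 2.7.10a, and for normalization DESeq2 1.36.0, per the labels and the study's methods. The library kit was stranded, but the annotation release and the strand setting of the counting are not given in the sources used here. Each deposited value is a signal, a read count that the authors divided by 1 factor per library. Whole reads were recovered for 100% of values (tolerance 0.01 reads). The table had 0 other columns of values. Column letters C and A were assigned to groups by name and not by values.

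Log2(normalized count + 1) was tested with limma 3.58.1 in R 4.3.3 (trend, Benjamini-Hochberg adjustment) where a gene's mean was at least 10, and scripts were tested on simulated data. A call needed a log2 fold change beyond 1 in size with an adjusted p under 0.05. The second fit subtracted the mean log2 value of 14 pan-endothelial genes in each library. Locations and promoters came from GRCm39 with GENCODE M39, in which 24451 of 24873 genes and all 9 members were found by symbol. Intervals and reads cover these libraries alone, and counting error is the least error a low gene has.

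The members and lists (other arterial, partners, pan-endothelial, venous, capillary, pericyte, smooth muscle, fibroblast, astrocyte, neural progenitor, neuron, neutrophil, erythrocyte and pluripotency) were chosen with earlier results of these data known. The results of 2 further lists are not reported here. All members are named, with the 2 lowest and the 1 highest log2 fold change of each endothelial or partner list, 10 fixed genes, and the 2 genes of each other list with the highest mean over all libraries. *Vcam1* is named as the other venous gene that rose. The 5 likest genes had a mean of at least 100. Alternatives were other pseudocounts, filters and scalings, edgeR 4.0.16 and DESeq2 1.42.0 on the recovered reads, limma without trend, a block for the replicate number, the adjusted p alone and each library left out. The order of levels by length of all exons was added after seeing the data.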

Additional observations from a re-analysis of the deposited data

How the results depend on the processing

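*Sema3g*, *Bmx*, *Unc5b*, *Gkn3* and *Cxcl12* were called lower in every alternative run, and between 5 and 6 members were lower with a library left out. With equal totals, 5 members were lower, *Gja5* was not called, 1 member (*Fbln5*) was called higher, *Gja4* stood at 0.0155 (log2) and 6 partners were lower. The adjusted p alone also called 1 member higher. Relative to the pan-endothelial genes, *Cxcl12* changed sign around 0: it stood at 0.14 with scaling by the median of the list, at 0.01 without control library 1 and between -0.0444 and 0.0433 over all the libraries left out. *Gja5* ranged from -0.0486, without tamoxifen library 2, to 2.43, without tamoxifen library 1. On that scale the median of the members ranged from 0.79 to 1.59 with a library left out. With limma without trend, *Unc5b* did not pass on that scale (adjusted p = 0.0942). Of the further arterial genes, 1 was called higher with quantile normalization, against 2 in the main fit. With a library left out, further arterial genes called higher ranged from 1 to 2, partners from 3 to 7 and venous genes from 1 to 4; without tamoxifen library 1 the partner count was 3. Over all genes, 3284 were lower and 5867 higher, against 1838 and 7206 with equal totals, 5509 and 4615 with quantile normalization, 2394 and 3540 with a filter at a mean of 100, and 1594 to 3537 and 2553 to 6163 with a library left out. The cause was not tested. By the length of all exons, *Unc5b* stood ahead of *Efnb2* under tamoxifen.

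The labels do not say that a replicate number marks a shared litter or day, and the deviations of same-numbered libraries correlated at 0.0251, so the numbers were not taken as pairs. With the replicate number as a block, 6 members were called lower and 0 higher, with a median of -1.73. Of the 20485 genes tested, 3461 were called lower and 6064 higher with the block. Relative to the pan-endothelial genes, *Unc5b* did not pass with the block (limma, adjusted p = 0.0807), whereas *Gja4*, *Efnb2* and *Fbln5* did.

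Among the members, *Gja5* rests on as few as 25 reads in a library and *Gkn3* on 20.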
